A study of Homo sapiens with 27 samples.

Results

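The comparison described here pools 6 arrays of MDA-MB-231 cells treated for 48 h with an inhibitor of O-GlcNAc cycling and sets them against 3 arrays of cells kept for 48 h in the vehicle DMSO. The members were chosen by label alone. They are the 3 arrays of 5SGlcNAc at 50 µM, the 3 of Thiamet-G at 25 µM and the 3 of DMSO, and make up 9 of the 27 arrays of the series. MDA-MB-231 is an invasive human breast cancer line of the mesenchymal, triple-negative kind, grown here in DMEM with serum. The remaining 18 arrays cover 0, 2, 4, 6, 8 and 24 h, with 1 array for each treatment and time. Separate cultures are not stated for the arrays of a group, and every p-value therefore rests on a spread between arrays that may be technical.

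O-GlcNAc is a single sugar that O-GlcNAc transferase (OGT) places on serine and threonine residues of nuclear and cytosolic proteins and that O-GlcNAcase (OGA) removes. 5SGlcNAc inhibits OGT and so lowers the modification, while Thiamet-G inhibits OGA and raises it. KEAP1 is the adaptor that sends the transcription factor NRF2 (gene NFE2L2) for degradation, and NRF2 drives genes of glutathione, thioredoxin and NADPH metabolism. Because the inhibitors push the same modification in opposite directions, the pooled contrast asks which transcripts moved the same way under both.

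Levels are log2 expression values per probe set, and every difference below is on that log2 scale unless it is called a fold. The pooled difference is the mean of the 5SGlcNAc and Thiamet-G differences from DMSO. A gene counts as called when its Benjamini-Hochberg adjusted p from limma over 11963 genes is under 0.05. Arrays are called non-overlapping for a gene when all 6 treated arrays lie on the same side of all 3 DMSO arrays. Both inhibitors share the 3 DMSO arrays, so an error in the DMSO mean enters both differences with the same sign. At 48 h a change shared by the inhibitors and such an error cannot be told apart, which limits every value of the pooled contrast. The difference between 5SGlcNAc and Thiamet-G does not contain the DMSO arrays.

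The 9 arrays resembled each other closely, with a lowest correlation across genes of 0.997. All 10 measured markers of basal and mesenchymal breast cancer lines lay above the median gene level, 10 of 19 luminal epithelial markers did, 2 of 14 fibroblast markers did, and none of 10 haematopoietic or 7 endothelial markers did. The log2 of the summed level of the 10 basal markers was 16.54 to 16.59 with DMSO, 16.46 to 16.48 with 5SGlcNAc and 16.56 to 16.60 with Thiamet-G. Array medians were 7.73 to 7.76 with DMSO and 7.68 to 7.73 in the treated arrays, a difference of -0.033 (exact permutation test over 84 regroupings, two-sided p = 0.0357, adjusted over 5 array measures 0.0892; smallest possible p 0.0119). The upper quartile was 9.91 to 9.93 against 9.85 to 9.90 (exact p = 0.0238, adjusted 0.0892), and the lower quartile 5.81 to 5.88 against 5.84 to 5.94 (exact p = 0.238). RNA integrity was read from control probe sets, as the 3' level minus the 5' level. For ACTB it was 0.22 to 0.33 with DMSO and 0.15 to 0.39 with the inhibitors (exact p = 0.81), and that of GAPDH 0.17 to 0.27 and 0.11 to 0.25 (exact p = 0.238). By inhibitor, ACTB gave 0.15 to 0.25 with 5SGlcNAc and 0.25 to 0.39 with Thiamet-G, and GAPDH 0.16 to 0.18 and 0.11 to 0.25. Whether these measures differ between the inhibitors was not tested.

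More genes fell than rose under the inhibitors together. Of 11963 genes, 674 were called in the pooled contrast (5.63%), of which 561 fell (4.69%) and 113 rose (0.945%). The changes were small. Only 7 of the 674 reached a 1.5-fold change, the smallest called change was 0.133, and the median standard error of a pooled difference was 0.053. The count was lower when any of several arrays was left out. It was 193, 184 and 214 without DMSO replicate 1, 2 or 3, 323 and 379 without 5SGlcNAc replicate 1 or 2, and 443 and 426 without Thiamet-G replicate 1 or 3. In lysates of whole cultures, fewer cells of a kind and less RNA per cell cannot be told apart.

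A pooled call did not by itself mean that both inhibitors moved a gene. Of the 674 called genes, 297 (44.1%) were also called between 5SGlcNAc and Thiamet-G, against 1634 of all 11963 genes (13.7%). In 48 the inhibitors' differences from DMSO had opposite signs. Arrays were non-overlapping for 482 called genes, 408 falls and 74 rises, which are here called common changes. For comparison, arrays were non-overlapping for 1065 of all genes (8.9%), 804 lower and 261 higher. Among the 482, the median size of the pooled difference was 0.233, and 130 (27%) still differed between the inhibitors. The other 192 called genes had overlapping arrays, and 167 of them were called between the inhibitors.

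**Figure D1:**
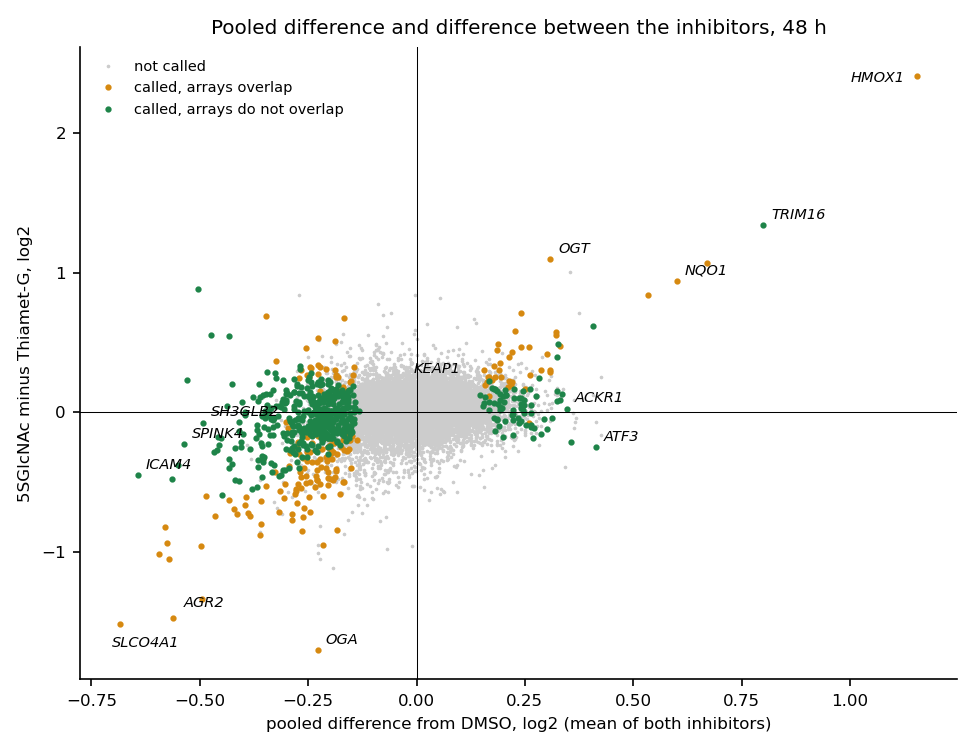
Each point is 1 of 11963 genes at 48 h, with the pooled difference from DMSO on the horizontal axis and the difference between the inhibitors on the vertical axis, both log2. Green points are the 482 called genes with non-overlapping arrays, orange points the 192 called genes whose arrays overlap, and grey points genes not called. The green points lie mostly left of 0 and near the horizontal line, while HMOX1 and TRIM16 lie far above it and SLCO4A1, AGR2 and OGA far below.

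Of the 12 largest common falls chosen by the rule, only COL6A3 is on any of the 33 gene lists used. Among the 12 falls with the largest value of the smaller inhibitor difference were SH3GLB2, SPINK4, ICAM4, OCEL1, RAB40B, LSR, ACTMAP, LMCD1, PBXIP1, COL6A3 and ZNF165. SH3GLB2, the endophilin B2 protein that bends membranes, measured 7.72, 7.58 and 7.72 in the DMSO arrays, 6.98, 7.28 and 7.17 with 5SGlcNAc and 7.12, 7.22 and 7.31 with Thiamet-G. The treated arrays lay below the DMSO arrays without overlap. The pooled difference was -0.49 ± 0.071 (SE; adjusted p = 0.00693, limma), a level 1.41-fold lower. The inhibitors differed by -0.073 (95% confidence interval -0.26 to 0.11), so a difference between them was not shown.

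LSR, a lipoprotein receptor that also builds tricellular junctions, had the most even pair of differences among these falls. It measured 8.11, 8.17 and 8.04 in the DMSO arrays, 7.74, 7.63 and 7.76 with 5SGlcNAc and 7.79, 7.74 and 7.60 with Thiamet-G. The mean was 8.11 ± 0.065 (SD, n = 3) with DMSO, 7.71 ± 0.070 with 5SGlcNAc and 7.71 ± 0.10 with Thiamet-G, and both inhibitors gave -0.40. The pooled fall was 1.32-fold (adjusted p = 0.00567, limma), and the interval of the difference between the inhibitors was -0.14 to 0.14. ACTMAP, the protease that matures actin, measured 9.37, 9.30 and 9.18 in the DMSO arrays, 8.81, 8.83 and 8.88 with 5SGlcNAc and 8.86, 8.96 and 8.90 with Thiamet-G. The highest treated array, 8.96, lay below the lowest DMSO array, 9.18. ACTMAP fell by 0.41 ± 0.048 (SE; adjusted p = 0.00355, limma), with -0.44 under 5SGlcNAc and -0.38 under Thiamet-G.

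PBXIP1, which binds PBX homeodomain factors, fell by 0.40 (-0.36 with 5SGlcNAc, -0.44 with Thiamet-G). OCEL1, named for its occludin and ELL domain, fell by 0.44 (-0.42 and -0.46). PBXIP1 had 3 dimmer probe sets with pooled differences of -0.33, -0.20 and -0.072, so the size depended on the probe set while the sign did not. Across the 24 common genes chosen by the rule, 4 had other probe sets, 6 in all, and all 6 had the pooled sign of the main one. That sign did not always hold for each inhibitor. The dimmer probe set of SLC25A17 gave 0.11 with 5SGlcNAc and -0.070 with Thiamet-G (pooled 0.020). That of RAB40B gave a pooled -0.12, against -0.53 for its main one.

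Some common falls were larger with 5SGlcNAc. ICAM4, an adhesion protein of red cells, measured 6.31, 6.25 and 6.48 in the DMSO arrays, 5.41, 5.54 and 5.49 with 5SGlcNAc and 5.97, 5.94 and 5.87 with Thiamet-G. All 6 treated arrays lay below the DMSO arrays, and the 5SGlcNAc arrays below the Thiamet-G arrays. The pooled difference was -0.64 ± 0.056 (SE; adjusted p = 0.00136, limma), the largest common fall, 1.56-fold. With 5SGlcNAc it was -0.87 and with Thiamet-G -0.42, and the inhibitors differed by -0.45 (adjusted p = 0.00242, limma).

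COL6A3, a chain of the matrix collagen type VI, measured 8.41, 8.51 and 8.46 in the DMSO arrays, 7.57, 7.89 and 7.70 with 5SGlcNAc and 8.10, 8.10 and 8.10 with Thiamet-G. It fell by 0.74 and 0.36, and the inhibitors differed (adjusted p = 0.00879, limma). COL6A3 is also on the fibroblast marker list, whose log2 summed level was 13.24 to 13.26 with DMSO, 12.76 to 12.87 with 5SGlcNAc and 13.23 to 13.28 with Thiamet-G. Of its 14 members 2, COL6A3 itself and S100A4, fell in the pooled contrast (4.69% of all genes fell), and none rose. S100A4 is also on the basal and mesenchymal list. The sum gives most weight to bright members, the brightest at 12.8. The list median was 0.022 with 5SGlcNAc and 0.030 with Thiamet-G. The part of that list in the COL6A3 result was not tested. LMCD1, a LIM domain cofactor of transcription, fell by 0.55 with 5SGlcNAc and 0.37 with Thiamet-G (difference adjusted p = 0.0354, limma). SPINK4, a secreted serine protease inhibitor, fell by 0.65 and 0.42, and the difference between the inhibitors did not pass (adjusted p = 0.0937). RAB40B, a small GTPase of a ubiquitin ligase complex, gave -0.41 and -0.65, and ZNF165, a zinc finger protein, -0.54 and -0.36. Their intervals between the inhibitors were -0.062 to 0.53 and -0.42 to 0.049. Alone, RAB40B did not pass with 5SGlcNAc (adjusted p = 0.082, limma), nor ZNF165 with Thiamet-G (adjusted p = 0.102, limma).

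Of the 12 falls, 10 stayed past the threshold in all 9 fits that left out 1 array. RAB40B did so in 4 of 9 and ZNF165 in 5. RAB40B lost its call without DMSO replicate 2 or 3, 5SGlcNAc replicate 1 or 2, or Thiamet-G replicate 1, with adjusted p from 0.0644 to 0.125 (limma). ZNF165 lost it without any of the DMSO arrays or 5SGlcNAc replicate 1, with adjusted p from 0.053 to 0.0972 (limma).

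Common rises were fewer, and several were in genes measured near the bottom of the scale. The 12 named by the rule were ACKR1, BRIX1, ATF3, KIR3DL3, LRRC3, H2BC6, ADAMTS9, CHORDC1, GRIK3, ADAMTS1, SLC25A17 and TEC. ATF3, a stress-induced transcription factor, measured 8.40, 8.60 and 8.65 in the DMSO arrays, 8.83, 8.82 and 8.87 with 5SGlcNAc and 9.11, 9.07 and 9.08 with Thiamet-G. All treated arrays exceeded the DMSO arrays, and the Thiamet-G arrays exceeded those of 5SGlcNAc. The pooled rise was 0.41 ± 0.054 (SE; adjusted p = 0.00488, limma), 1.33-fold. It was 0.29 with 5SGlcNAc and 0.54 with Thiamet-G, and the inhibitors differed by -0.25 (adjusted p = 0.0294, limma). ADAMTS1, a secreted metalloprotease of the matrix, measured 11.30, 11.34 and 11.24 in the DMSO arrays, 11.61, 11.55 and 11.47 with 5SGlcNAc and 11.78, 11.67 and 11.82 with Thiamet-G. Its groups did not overlap, it rose 1.28-fold (adjusted p = 0.00558, limma), and the rise was larger with Thiamet-G (0.46 against 0.25, adjusted p of the difference 0.034).

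CHORDC1, a co-chaperone of HSP90, rose evenly. It measured 11.14, 11.10 and 11.01 in the DMSO arrays, 11.33, 11.35 and 11.36 with 5SGlcNAc and 11.42, 11.25 and 11.38 with Thiamet-G. The lowest treated array, 11.25, lay above the highest DMSO array, 11.14. The differences were 0.26 and 0.27 (pooled adjusted p = 0.0158, limma), and the inhibitors differed by -0.0033 (95% confidence interval -0.13 to 0.12). The call was lost without DMSO replicate 2 or 3 (adjusted p = 0.0608 and 0.0708, limma). BRIX1, a factor of large ribosomal subunit assembly, measured 9.14, 9.23 and 9.22 in the DMSO arrays, 9.49, 9.48 and 9.49 with 5SGlcNAc and 9.61, 9.34 and 9.64 with Thiamet-G. The arrays did not overlap, although Thiamet-G replicate 2 lay close to the DMSO range. BRIX1 rose 1.24-fold (adjusted p = 0.0256, limma), with 0.29 and 0.33, and was past the threshold in 3 of 9 fits with 1 array left out. Those that lost the call were the fits without any DMSO array, 5SGlcNAc replicate 1 or 2, or Thiamet-G replicate 1, with adjusted p up to 0.0997.

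H2BC6, a replication-dependent histone H2B gene, rose by 0.29 (adjusted p = 0.00912, limma), with 0.27 under 5SGlcNAc and 0.32 under Thiamet-G. But its probe set is of a type that shares sequence with other genes, and H2B copies are nearly identical. ADAMTS9, another matrix metalloprotease, gave 0.40 with 5SGlcNAc and 0.27 with Thiamet-G. SLC25A17, a peroxisomal carrier of cofactors, gave 0.25 and 0.25, and neither passed alone (adjusted p = 0.0524 and 0.0887, limma). Its dimmer probe set gave 0.11 and -0.070. ACKR1, an atypical chemokine receptor, KIR3DL3, a receptor of natural killer cells, ADAMTS9 and TEC, a tyrosine kinase of blood cells, lay in the second lowest of 5 equal groups of genes ordered by level. LRRC3 and GRIK3, a glutamate receptor subunit, lay in the lowest group. With 5SGlcNAc and Thiamet-G, ACKR1 gave 0.36 and 0.33, KIR3DL3 0.37 and 0.29, and TEC 0.29 and 0.24. LRRC3 gave 0.36 and 0.28, and GRIK3 0.40 and 0.25. The Thiamet-G difference alone did not pass for ACKR1, KIR3DL3, TEC and GRIK3 (adjusted p = 0.0837, 0.114, 0.115 and 0.183, limma). KIR3DL3 was also read by a probe set of shared sequence. The median pooled difference over all genes was 0.033 in the lowest group and 0.032 in the second lowest, and the part of that shift in the 6 rises was not tested.

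Fewer rises than falls kept their call when 1 array was left out. Of the 12 rises 4, ATF3, H2BC6, ADAMTS9 and ADAMTS1, stayed past the threshold in all 9 fits. LRRC3 lost its call without DMSO replicate 3 (adjusted p = 0.06, limma). ACKR1, KIR3DL3, GRIK3, SLC25A17 and TEC kept theirs in 3, 2, 2, 1 and 2 of 9 fits, with adjusted p up to 0.143, 0.134, 0.16, 0.143 and 0.164. Each of those 5 lost the call without any 1 of the DMSO arrays.

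**Figure D2:**
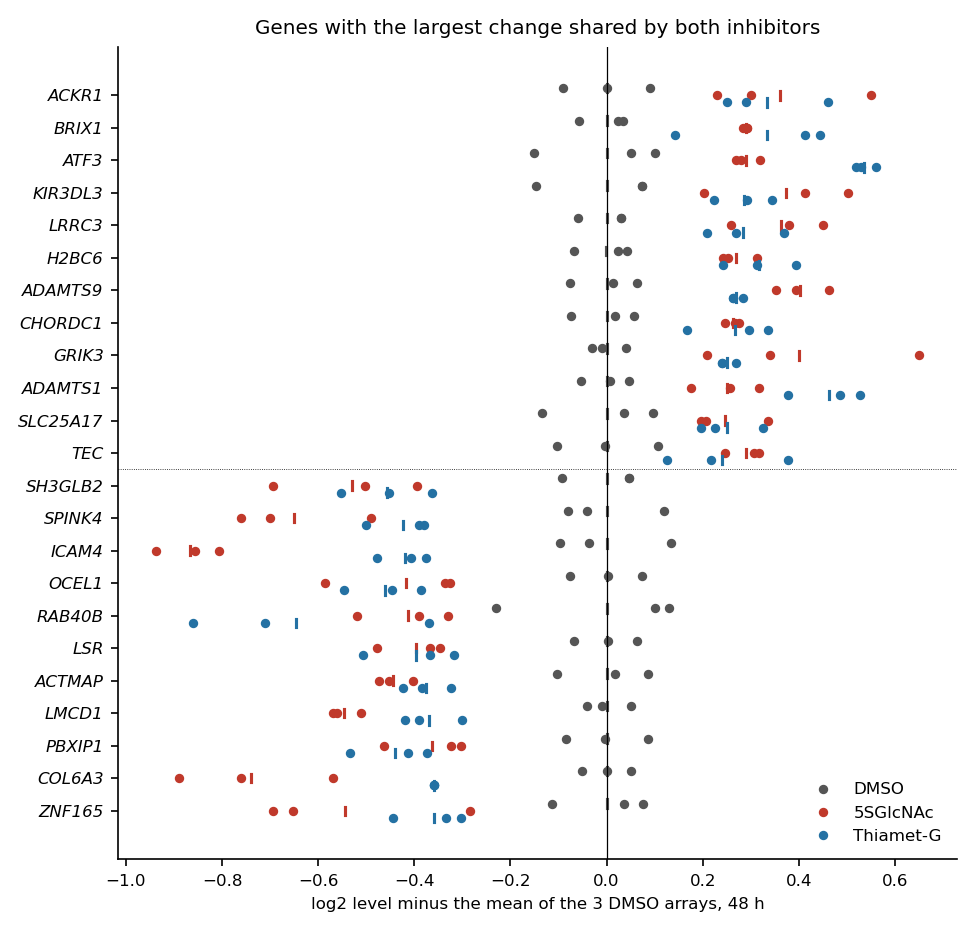
Each row is 1 of 23 common genes chosen by the rule, 12 rises above the dotted line and 11 falls below it, and each point is 1 array at 48 h, given as its log2 level minus the mean of the 3 DMSO arrays; short bars are group means. No treated point crosses the DMSO points of its row, and the means of the inhibitors lie farthest apart in ICAM4, COL6A3 and ATF3.

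The strictest form of the pooled comparison treats the 6 inhibitor arrays as 1 group, so that any difference between the inhibitors counts as spread. It called 21 genes (0.176%), all of them falls and all among the 482 common changes. They include the genes of DNA replication and repair RPA3, a subunit of the single-strand binding complex, and RNASEH2A, the catalytic subunit of ribonuclease H2. RPA3 measured 11.79, 11.79 and 11.82 in the DMSO arrays, 11.53, 11.51 and 11.54 with 5SGlcNAc and 11.42, 11.35 and 11.42 with Thiamet-G. It was read well above the middle of the scale, and its groups lay clearly apart. It fell by 0.34 ± 0.033 (SE; adjusted p = 0.00202 in the fit of 3 groups and 0.0357 in that of 2, limma), by 0.27 with 5SGlcNAc and 0.40 with Thiamet-G. RNASEH2A gave -0.24 and -0.30.

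Other genes called this way act in the secretory path and the lysosome or at the membrane. FICD, the enzyme that AMPylates the ER chaperone BiP, gave -0.32 with 5SGlcNAc and -0.41 with Thiamet-G. SMPD1, acid sphingomyelinase, gave -0.25 and -0.27. CYBA, the p22phox subunit of NADPH oxidases, gave -0.33 and -0.25. PXMP4, a peroxisomal membrane protein, gave -0.32 and -0.43. The differences between the inhibitors in these 4 genes were 0.083, 0.013, -0.080 and 0.11, and none of the 4 intervals excluded 0.

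The rest of the 21 cover varied functions. TCEA2, a transcription elongation factor, gave -0.33 and -0.35, and ISYNA1, which makes inositol phosphate from glucose 6-phosphate, -0.33 and -0.31. CUL9, a cullin, gave -0.29 and -0.42, and OTUB2, a deubiquitinase, -0.37 and -0.33. MAGED1, a MAGE family protein, gave -0.36 and -0.33, and METRN, the secreted protein meteorin, -0.32 and -0.37. HCFC1R1, a regulator of HCFC1, gave -0.41 and -0.32, and GATD3, a mitochondrial protein, -0.32 and -0.35. SH3GLB2, OCEL1, LSR, ACTMAP, LMCD1 and PBXIP1 are also among the 21. The interval between the inhibitors excluded 0 for RPA3 (0.044 to 0.22), CUL9 (0.021 to 0.23) and LMCD1 (-0.28 to -0.072). HCFC1 itself is known as a partner and a substrate of OGT.

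Promoters of the common genes were read from RefSeq (GRCh38.p14) as the 250 bases before the annotated start. Entries were found for 9 of the 12 rises and 11 of the 12 falls. Each window was searched on both strands for 4 motifs, TGACNNNGC (antioxidant response element, bound by NRF2), GAANNTTC (heat shock element), TGACGTCA (cAMP response element, bound by the ATF and CREB families) and CACGTG (E-box). Of 35116 promoters in the table, 10.9%, 5.78%, 1.65% and 6.34% held them. The antioxidant element was found in OCEL1 and RAB40B, both falls, and in none of the 9 rises. CHORDC1 alone held the heat shock element, LMCD1 alone the cAMP element and ACTMAP alone the E-box. The largest rises and falls with an entry, BRIX1, ATF3, SH3GLB2 and SPINK4, held none of the 4. The 4 windows below show the kinds of match among genes that moved alike. They were picked after the matches were seen, run 5′ to 3′ towards the start, and have the motifs in capitals.
CHORDC1, chr11:90223050-90223299, minus strand, 3 heat shock elements: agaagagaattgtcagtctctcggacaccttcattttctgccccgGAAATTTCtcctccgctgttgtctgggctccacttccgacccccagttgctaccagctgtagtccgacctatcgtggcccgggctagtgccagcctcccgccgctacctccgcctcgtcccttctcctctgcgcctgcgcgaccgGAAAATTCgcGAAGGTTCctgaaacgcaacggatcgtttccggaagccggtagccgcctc
LMCD1, chr3:8501573-8501822, plus strand, 1 cAMP response element: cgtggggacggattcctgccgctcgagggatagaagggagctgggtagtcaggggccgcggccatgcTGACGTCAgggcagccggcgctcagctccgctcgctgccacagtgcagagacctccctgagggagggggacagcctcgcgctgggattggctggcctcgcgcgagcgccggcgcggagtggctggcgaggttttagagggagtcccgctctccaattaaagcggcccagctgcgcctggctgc
ACTMAP, chr19:40750478-40750727, minus strand, 2 E-boxes: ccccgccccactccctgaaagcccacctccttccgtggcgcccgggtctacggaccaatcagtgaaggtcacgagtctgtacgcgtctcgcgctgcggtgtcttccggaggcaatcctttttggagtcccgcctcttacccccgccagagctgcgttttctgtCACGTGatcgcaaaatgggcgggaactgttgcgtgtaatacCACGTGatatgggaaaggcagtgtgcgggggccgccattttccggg
OCEL1, chr19:17225976-17226225, plus strand, 1 antioxidant response element on the other strand: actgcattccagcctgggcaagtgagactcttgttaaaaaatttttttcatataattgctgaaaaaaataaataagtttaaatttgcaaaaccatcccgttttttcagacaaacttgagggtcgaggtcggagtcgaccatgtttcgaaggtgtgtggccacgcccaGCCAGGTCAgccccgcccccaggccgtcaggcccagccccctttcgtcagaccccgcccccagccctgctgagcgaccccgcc
A match is a description of these letters and says nothing of binding.

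The largest pooled rises and several large falls were mostly 5SGlcNAc changes in value. HMOX1, which degrades haem, was 8.75 ± 0.051 (SD, n = 3) with DMSO, 11.11 ± 0.051 with 5SGlcNAc and 8.70 ± 0.071 with Thiamet-G. Its pooled difference of 1.16 is the mean of 2.36 and -0.050, and the Thiamet-G arrays overlapped the DMSO arrays. TRIM16, an NRF2 target of the TRIM family, gave 1.47 and 0.13. It is the largest rise with non-overlapping arrays (1.74-fold pooled), yet the inhibitors differed by 1.34. GCLM, the modifier subunit of glutamate-cysteine ligase, gave 1.20 and 0.14, and NQO1, a quinone reductase, 1.07 and 0.13. On the falling side, SLCO4A1, an organic anion transporter, gave -1.44 and 0.073. NDP, the secreted ligand norrin, gave -1.10 and -0.087, and LIPG, endothelial lipase, -0.99 and -0.17. These 7 genes were chosen among those called between the inhibitors, so their small adjusted p for that difference (at most 0.00243, limma) is no added evidence. The call of LIPG was lost without DMSO replicate 2 or 3 (adjusted p = 0.0753 and 0.0695, limma).

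Members of the NRF2 list rose in the pooled contrast, with larger differences for 5SGlcNAc. Of 36 measured members, 13 rose (0.945% of all genes rose), none fell and 23 did not pass. Between the inhibitors 28 of the 36 were called, against 13.7% of all genes. The median pooled difference was 0.13, against -0.0033 over all genes, and the list medians were 0.30 with 5SGlcNAc and 0.012 with Thiamet-G. The count was 8 without DMSO replicate 2. Against 482 of all 674 called genes and 8.9% of all genes, arrays were non-overlapping for 6 of the 13. TXN, thioredoxin, was the most even of them (0.19 and 0.12; adjusted p between the inhibitors 0.36, limma), and it was not called after quantile or cyclic loess normalization. AKR1C1, an aldo-keto reductase, gave 0.40 and 0.16, TXNRD1, thioredoxin reductase, 0.72 and 0.10, and ME1, the cytosolic malic enzyme, 0.57 and 0.083. NFE2L2 differed by 0.010 (95% confidence interval -0.11 to 0.13; adjusted p = 0.934, limma). KEAP1 measured 11.48, 11.46 and 11.45 in the DMSO arrays, 11.59, 11.52 and 11.56 with 5SGlcNAc and 11.28, 11.37 and 11.30 with Thiamet-G. Its pooled difference was -0.027 (adjusted p = 0.712), from 0.093 and -0.15, and the inhibitors differed by 0.24 (adjusted p = 0.00553, limma).

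OGA, the enzyme that Thiamet-G inhibits, moved in opposite directions under the inhibitors. OGA measured 10.93, 11.02 and 10.97 in the DMSO arrays, 9.85, 9.91 and 9.92 with 5SGlcNAc and 11.62, 11.54 and 11.63 with Thiamet-G. Every 5SGlcNAc array lay below and every Thiamet-G array above the DMSO arrays. The differences were -1.08 and 0.62, so that the pooled -0.23 (adjusted p = 0.0138, limma) is a balance of opposite changes. That call was lost without DMSO replicate 2 or 3 (adjusted p = 0.0701 and 0.0574, limma). A dimmer probe set of OGA gave -0.99 with 5SGlcNAc and 0.56 with Thiamet-G, and the dimmest 0.077 and 0.17. OGT by its brightest probe set gave 0.86 and -0.24 (pooled 0.31, adjusted p = 0.00428). Its other probe sets had pooled differences of -0.77, 0.053, -0.63 and 0.087, so no direction can be given for OGT.

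Genes of the immediate early response included 3 with a common rise at 48 h. Of 21 measured members, ATF3, EGR1 and DUSP1 rose (0.945% of all genes rose), none fell and 18 did not pass. All 3 had non-overlapping arrays and stayed called after each of 3 other scalings and in all 9 fits with 1 array left out. With the treated arrays as 1 group, ATF3, EGR1 and DUSP1 were not called (adjusted p = 0.0722, 0.0754 and 0.0611, limma). EGR1, a zinc finger transcription factor, measured 10.97, 11.03 and 10.96 in the DMSO arrays, 11.27, 11.11 and 11.21 with 5SGlcNAc and 11.33, 11.33 and 11.39 with Thiamet-G. The treated arrays lay above the DMSO arrays, and the pooled rise was 1.22-fold (adjusted p = 0.00849, limma), from 0.21 and 0.36. A dimmer probe set of EGR1 gave 0.060 with 5SGlcNAc and 0.27 with Thiamet-G. DUSP1, a phosphatase of MAP kinases, measured 11.43, 11.50 and 11.43 in the DMSO arrays, 11.67, 11.68 and 11.66 with 5SGlcNAc and 11.82, 11.69 and 11.78 with Thiamet-G. It rose by 0.22 and 0.31 (pooled adjusted p = 0.00818, limma), and the difference between the inhibitors did not pass (adjusted p = 0.218). Its dimmer probe set gave 0.18 and 0.14. The median of the list was 0.017. At other times EGR1 was lower in the treated arrays, with pooled differences of -0.20, -0.43, -0.20, -0.33 and -0.37 at 2, 4, 6, 8 and 24 h (-0.31 over 2 to 24 h, not called). ATF3 gave -0.089 and DUSP1 0.11 over 2 to 24 h, neither called.

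Chaperones of the endoplasmic reticulum fell in part. Of 18 measured members, 5 fell (4.69% of all genes fell) and none rose, and the median was -0.099 pooled and -0.095 with each inhibitor, the most even medians among the lists with several calls. PDIA4, a disulfide isomerase, measured 11.17, 11.21 and 11.13 in the DMSO arrays, 10.88, 10.91 and 10.99 with 5SGlcNAc and 10.99, 10.96 and 10.97 with Thiamet-G. The arrays did not overlap, and the differences were -0.24 and -0.20 (pooled adjusted p = 0.0141, limma). SDF2L1, a partner of BiP, fell more with Thiamet-G (-0.35 against -0.13) and HSP90B1, the ER form of HSP90, more with 5SGlcNAc (-0.36 against -0.12). Both differences passed (adjusted p = 0.0154 and 0.0103, limma). SEL1L and EDEM1, which act in ER-associated degradation, gave -0.19 and -0.20, and -0.13 and -0.27. A dimmer probe set of HSP90B1 gave a pooled 0.033. No member was called without DMSO replicate 1 (PDIA4 at adjusted p = 0.0574, limma), PDIA4 and HSP90B1 lost their call without DMSO replicate 2 and SDF2L1 without DMSO replicate 3. After other scalings 3 or 4 were called.

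Genes of DNA replication had falls and no rises, and the count rested on the scaling. Of 37 measured members 11 fell (4.69% of all genes fell) and 26 did not pass, with a median of -0.077 (5SGlcNAc -0.13, Thiamet-G -0.063). After quantile normalization, median centring and cyclic loess the count was 3, 4 and 4. It was 3 without any 1 of the DMSO arrays or of 5SGlcNAc replicates 1 and 2. RPA3, described above, stayed called in each of those settings. POLD1, the catalytic subunit of polymerase delta, gave -0.19 and -0.18, and POLA2, a subunit of polymerase alpha, -0.14 and -0.27. MCM7, a helicase subunit, gave -0.77 and -0.077, so that its pooled fall of 0.42 came with a difference between the inhibitors (adjusted p = 5.85e-05, limma). LIG1, DNA ligase 1, gave -0.40 and -0.15.

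Ribosome biogenesis factors had rises and no falls. Of 20 measured members 6 rose (0.945% of all genes rose) and 14 did not pass, with a median of 0.11 (0.17 with 5SGlcNAc and 0.057 with Thiamet-G). WDR43, a factor of small subunit processing, gave 0.29 and 0.20, and MRTO4, of large subunit assembly, 0.24 and 0.15. RRS1 gave 0.26 and 0.093. Arrays of these 3 did not overlap. NOP2, an rRNA methyltransferase, rose with 5SGlcNAc (0.31) and differed by 0.053 with Thiamet-G (adjusted p between them 0.0072, limma). The count was 6 or 7 after other scalings and 0 without any 1 of the DMSO arrays, 5SGlcNAc replicate 1 or Thiamet-G replicate 3. BRIX1 is not on this list.

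In lists of inflammation and matrix, most pooled falls were larger with 5SGlcNAc in value. Of 21 NF-kB targets 6 fell (4.69% of all genes fell), of which 1 had non-overlapping arrays. CXCL2, a chemokine, gave -0.75 and -0.027, and CXCL8 -0.61 and -0.083. The NF-kB count was 3 or 4 after other scalings and 1 without DMSO replicate 1 or 3. Of 29 interferon-stimulated genes 3 fell, and 2 after other scalings or without any 1 of the DMSO arrays. IRF7, a transcription factor of the interferon response, was the 1 of them with non-overlapping arrays. It measured 9.54, 9.56 and 9.63 in the DMSO arrays, 9.06, 9.10 and 9.19 with 5SGlcNAc and 9.28, 9.28 and 9.33 with Thiamet-G. The arrays did not overlap, with differences of -0.46 and -0.28 (pooled adjusted p = 0.00302, limma). IFITM1, a membrane protein that restricts virus entry, gave -0.68 and -0.040.

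Matrix and mesenchymal genes had 7 falls and 1 rise in 33 (4.69% of all genes fell and 0.945% rose), with 5 falls and 1 rise after other scalings and 3 falls without any 1 of the DMSO arrays. MMP14, a membrane metalloprotease, gave -0.24 and -0.20, and COL4A2, of basement membrane collagen, -0.27 and -0.12. TAGLN, an actin-binding protein, fell more with Thiamet-G (-0.45 against -0.20) and TNC, tenascin C, more with 5SGlcNAc (-0.56 against -0.17). MMP2, the single rise, gave 0.32 and 0.12 at a level in the second lowest of the 5 level groups, and it lost its call in all 9 fits with 1 array left out. ERK feedback genes had 4 falls in 14 with medians of -0.26 and -0.0033, and 1 without DMSO replicate 1 or 2. DUSP4, a MAP kinase phosphatase, gave -0.47 and 0.013.

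Single members of other lists were called in the pooled contrast. STC1, a secreted glycoprotein induced by hypoxia, measured 10.02, 9.99 and 9.84 in the DMSO arrays, 9.30, 9.28 and 9.37 with 5SGlcNAc and 9.73, 9.71 and 9.71 with Thiamet-G. The arrays did not overlap, and it fell 1.35-fold pooled (adjusted p = 0.00272, limma), by 0.63 and 0.23. The hypoxia list had 2 rises and 3 falls in 18 (0.945% of all genes rose and 4.69% fell). It had 1 fall without any 1 of the DMSO arrays, 5SGlcNAc replicate 1 or 3 or after median centring. It had 1 rise in all 9 fits with 1 array left out except that without Thiamet-G replicate 2. Among its members were PLOD2, a lysyl hydroxylase, at 0.21 and 0.30 and its relative PLOD1 at -0.22 and -0.20. GALNT6, which starts mucin-type O-glycans in the Golgi, measured 9.86, 9.86 and 9.86 in the DMSO arrays, 9.30, 9.31 and 9.38 with 5SGlcNAc and 9.58, 9.58 and 9.58 with Thiamet-G. It fell 1.32-fold pooled (adjusted p = 0.00131, limma), and more with 5SGlcNAc (adjusted p of the difference 0.00294). FUT8, the core fucosyltransferase, gave -0.29 and -0.11. Of 31 Golgi glycosyltransferases these 2 fell (4.69% of all genes fell) and none rose, and 1 fell without DMSO replicate 1 or 2.

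IFT88, a subunit of the cilium transport complex, gave -0.25 with each inhibitor (adjusted p = 0.00984, limma), among 3 falls in 24 cilium genes (4.69% of all genes fell). That count was 1 without any 1 of the DMSO arrays or 5SGlcNAc replicate 1, and 1 or 2 after other scalings. For the lists that follow, 4.69% of all genes fell and 0.945% rose. GADD45A, a p53 target of the stress response, gave 0.35 and 0.18, while CCNG1, another p53 target, gave -0.29 and -0.15. The p53 list had 1 rise and 2 falls in 16, with no rise without DMSO replicate 1 and 1 fall without DMSO replicate 2 or 3, 5SGlcNAc replicate 1 or after median centring. Its other called member, GDF15, gave -0.59 and -0.13, and its dimmer probe set 0.025 pooled. Of 22 genes of the ATF4 and amino acid response 4 fell, among them PHGDH, the first enzyme of serine synthesis (-0.30 and -0.17), and SLC1A4, a serine and alanine carrier (-0.21 and -0.27). None of the 4 was called without any 1 of the DMSO arrays. DNAJA1, a co-chaperone of HSP70, gave 0.18 and 0.13 and, with CHORDC1, was the whole of the rises in 18 cytosolic chaperones. DNAJA1 kept its call in 1 of 9 fits with 1 array left out, and neither was called without DMSO replicate 2 or 3. A dimmer probe set of DNAJA1 gave 0.047 and 0.030. H2BC12 gave 0.14 and 0.30, and the linker histone H1-10 -0.51 and -0.25, in a list of 14 with 2 rises and 1 fall. Without DMSO replicate 1 or 3 no histone fell, 1 rose without any 1 of the DMSO arrays, 5SGlcNAc replicate 1 or Thiamet-G replicate 3, and 4 rose without Thiamet-G replicate 2 or after quantile or cyclic loess normalization.

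Further lists had few calls or none, against 4.69% of all genes that fell and 0.945% that rose. Lysosomal genes had 2 rises and 3 falls in 26, among them TPP1 at -0.24 and -0.19. Dimmer probe sets of TPP1 gave pooled differences of -0.29, 0.035 and -0.028. No lysosomal gene fell without DMSO replicate 1 or 3, 1 fell without DMSO replicate 2 or 5SGlcNAc replicate 1, and none rose in 7 of 9 fits with 1 array left out. The TGF-beta and BMP targets had 3 falls in 19, mitosis genes 2 in 36, and 19 luminal epithelial markers 3. The TGF-beta count was 0 without DMSO replicate 1 or 2, 1 without DMSO replicate 3 or after median centring, and the mitosis count was 0 in 8 of 9 fits with 1 array left out and after median centring and cyclic loess. The luminal count was 1 without DMSO replicate 1 or 3 or Thiamet-G replicate 1 or 3. Those 3 luminal markers were AGR2 (-1.30 and 0.17), CLDN7 and KRT19, and all 3 differed between the inhibitors. None of 27 proteasome subunits was called, with list medians of 0.083 and -0.0033. Glycolysis, the respiratory chain, cholesterol synthesis, metallothioneins and zinc, the clock and splicing regulators had 1 fall each, and none after any of the 3 other scalings, and the glucocorticoid list 1 rise (DUSP1). In the O-GlcNAc and hexosamine list the 2 of 7 members called were OGT and OGA, described above, 1 of 10 basal and mesenchymal markers fell, and none of the 10 haematopoietic or 7 endothelial markers was called.

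**Figure D3:**
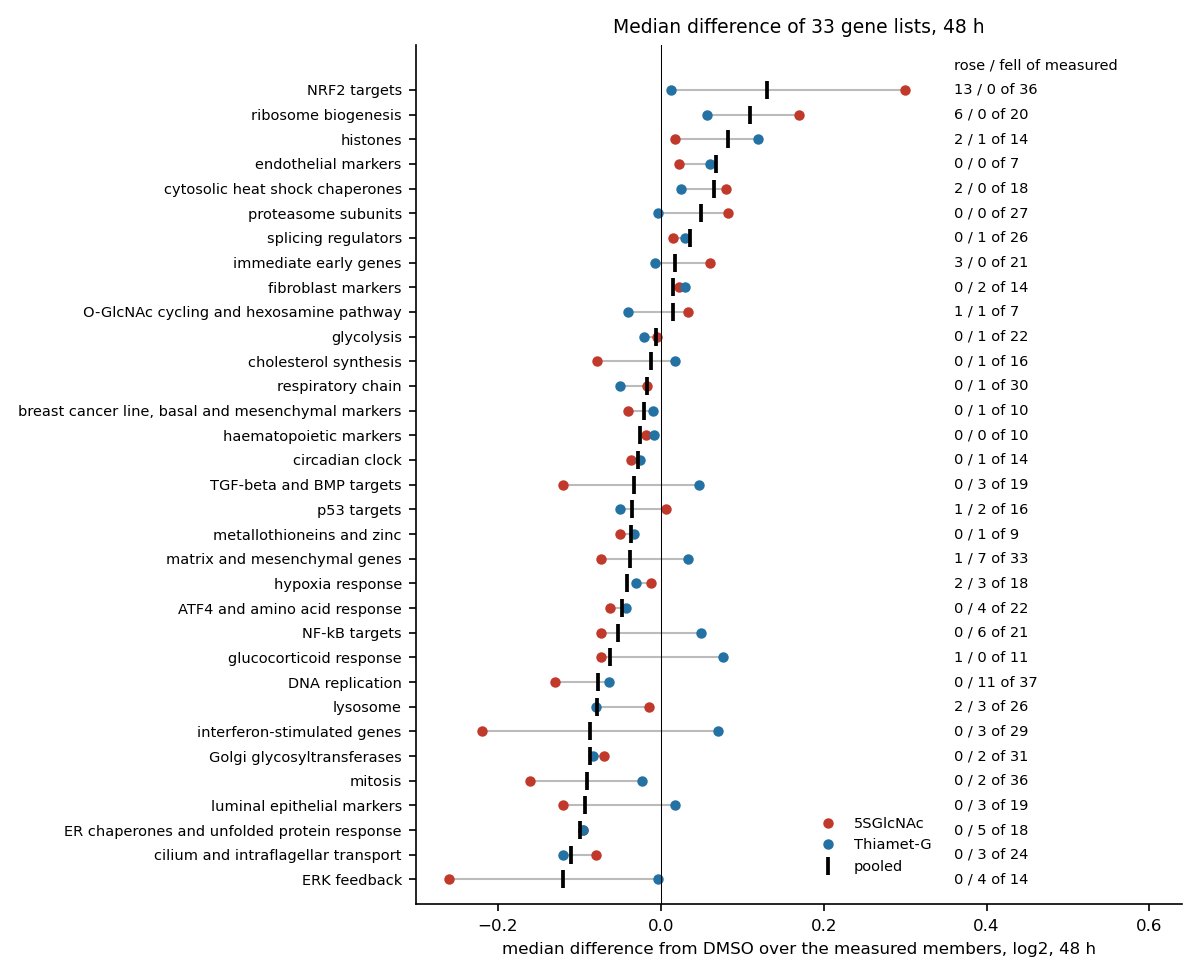
Each row is 1 of 33 gene lists at 48 h, with the median log2 difference from DMSO over its measured members for 5SGlcNAc (red), Thiamet-G (blue) and the pooled contrast (black bar), and the numbers of members that rose and fell at the right. The points of the inhibitors coincide in the ER chaperone list and lie far apart in the NRF2, ERK feedback and interferon lists.

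The pooled difference varied with the level of a gene, and with it the split between falls and rises. From the lowest to the highest of the 5 groups of genes by level, the median pooled difference was 0.033, 0.032, -0.043, -0.033 and -0.0033. The third and the fourth group held 194 and 220 of the 561 falls. After quantile normalization the 5 medians were 0.0086, 0.017, 0.0030, 0.0032 and -0.0022. There 464 genes were called, 67.9% of them falls, against 83.2% in the deposited values. Median centring gave 395 calls with 66.8% falls, and cyclic loess 505 with 70.1%. Of the 674 genes, 407, 373 and 447 were called again in the same direction. All 12 named common falls stayed called under each of the 3 scalings, and 10, 11 and 10 of the 12 rises did. The part of the level in the calls was not tested beyond these scalings.

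**Figure D4:**
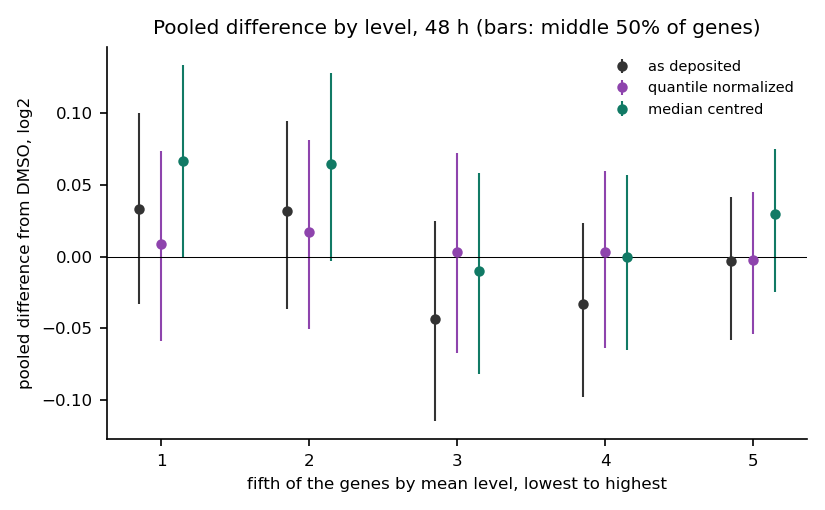
Points are medians, and bars the middle 50%, of the pooled log2 difference from DMSO at 48 h in 5 equal groups of genes ordered by mean level, for the deposited values and after quantile normalization or median centring. In the deposited values the medians are above 0 in the lower 2 groups and below 0 in the third and the fourth, and after quantile normalization all 5 lie between -0.0022 and 0.017.

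The arrays of 2 to 24 h, which hold other DMSO arrays, gave no gene past the threshold. With 1 array per treatment and time and time as a block, limma called 0 of 11963 genes (0%), 556 had an unadjusted p under 0.05, and the smallest adjusted p was 0.967. The median standard error was 0.055, close to that at 48 h. But the fit takes the effect as equal at every time, so a change present at 24 h alone is diluted in it. HMOX1 gave a pooled difference of 1.07 at 24 h and of 0.20 ± 0.26 (SE) in the fit. The 482 common genes can also be read in those arrays as a description. At 24 h, 92.9% of the 408 falls were lower in the treated arrays (56.4% of all genes) with a median of -0.165, and 78.4% of the 74 rises were higher (43.6% of all genes) with a median of 0.117. With 5SGlcNAc at 24 h the median of the falls was -0.207 and with Thiamet-G -0.134, and both are set against the same single DMSO array. Against that array all 12 named falls were lower and 9 of 12 named rises higher in the mean of the inhibitors, among them LSR (-0.36), OCEL1 (-0.42), ICAM4 (-0.80) and CHORDC1 (0.39), while ATF3 (-0.10) and H2BC6 (-0.092) were lower.

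Shares at other times went in both directions. With 1 array per treatment and time, variation between arrays and a response that changes with time cannot be told apart. At 0 h 74.5% of the 408 falls were lower in the treated arrays (56.7% of all genes) with a median of -0.038. At 4 h 77.5% were (55.9% of all genes), with a median of -0.085. At 2, 6 and 8 h 39.5%, 32.1% and 40.2% were lower, against 46.4%, 41.5% and 46.2% of all genes. The size at 24 h was larger than at the other times, and with 1 array per point its spread is unknown.

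**Figure D5:**
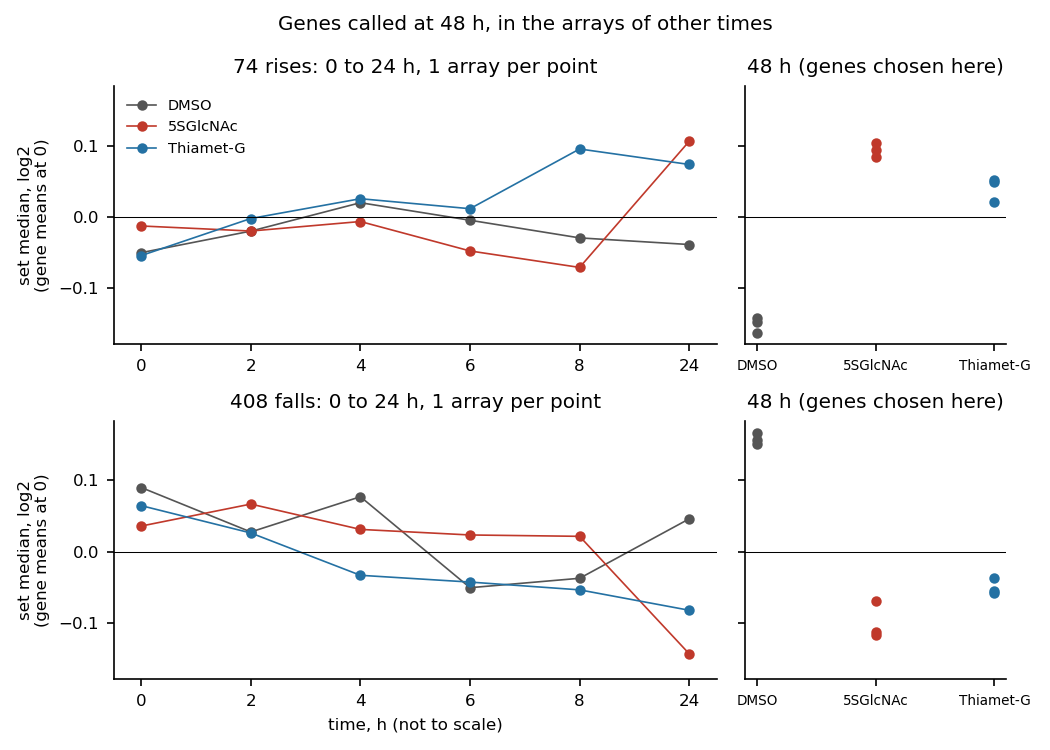
Points are single arrays, each the median over the 74 common rises (top) or the 408 common falls (bottom) of the log2 level relative to each gene's mean within 0 to 24 h (left) or within 48 h (right); the genes were chosen on the 48 h arrays, so the right panels show no independent evidence. At 24 h both treated arrays lie above the DMSO array for the rises and below it for the falls, and before 24 h the order of the treatments changes from time to time.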

How the data were processed

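RNA was measured on Affymetrix expression arrays. The authors deposited log2 levels per probe set. RMA is the method listed for them per the submitters' processing notes, with its version not given in the sources used here. RMA gives arrays handled together a like distribution, so a shift of most genes in 1 direction could be lost. The 48 h values carry fewer decimals than the others, and whether all arrays were normalized together is not stated, so their levels were set only against each other. Of 22277 probe sets, 62 were controls, 19064 named 1 gene, 1043 several and 2108 none in the platform annotation, and 19052 were matched to a current symbol through Entrez identifiers. Each of 11963 genes was read by its brightest probe set over the 9 arrays.

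The linear model (R 4.3.3; lmFit and eBayes from limma 3.58.1) had 3 group means and 1 shared spread per gene, with two-sided tests. The contrasts were the mean of both inhibitors minus DMSO, each inhibitor minus DMSO, and 5SGlcNAc minus Thiamet-G, with Benjamini-Hochberg adjustment over all genes at 0.05 and 95% confidence intervals. Arrays of 2 to 24 h were fitted apart with time as a block. Array measures had exact permutation tests. The tests were tested on simulated data. Alternatives were quantile normalization, median centring, dropping dim genes (mean below percentile 40), averaging the probe sets of a gene, no _x_at probe sets, trend and robust variance, treated arrays as 1 group, replicate number as a block and leaving out each array or time. Cyclic loess was added after seeing that differences varied with level.

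Named genes were the 12 rises and the 12 falls with the largest smaller inhibitor difference among called genes with non-overlapping arrays, the 4 largest pooled rises and falls that were called between the inhibitors and were unequal (opposite signs, or the smaller difference under 0.5 times the larger), up to 3 called members of each of 33 lists with the largest change, and OGT, OGA, NFE2L2, KEAP1, NQO1 and HMOX1. TXN, AKR1C1, TXNRD1, ME1, SEL1L, EDEM1, POLD1, POLA2, RRS1, MMP14, COL4A2, MMP2, PLOD1, PLOD2 and those of the 21 genes of the 1-group fit that the rule does not hold were named after their values were seen. The members and lists were chosen with earlier results of these data known. Promoters are RefSeq entries of 250 bases before and 50 after each start, of which the 250 before were used. The rule for printing promoters would have shown 4 without a motif, and 4 with a motif are printed in their place. Of the 12 falls chosen by the rule, 1 is not reported here, although counts include it.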

Additional observations from a re-analysis of the deposited data

Results flagged for a closer look

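Of the 93 genes chosen by the naming rule, 53 were called between the inhibitors at 48 h, against 1634 of all 11963 genes (13.7%). The test was limma's for 5SGlcNAc minus Thiamet-G (adjusted p under 0.05, n = 3 arrays each, and no DMSO array in the difference). The count of 53 is raised by the rule itself. Its unequal genes, HMOX1, TRIM16, GCLM, NQO1, ICAM4, SLCO4A1, NDP and LIPG, had to be called between the inhibitors to be chosen as such. The values below are the log2 difference 5SGlcNAc minus Thiamet-G, and a negative value means a lower level with 5SGlcNAc. Among the common changes the effects differed for ATF3 (-0.25), ADAMTS1 (-0.21), ICAM4 (-0.45), LMCD1 (-0.18) and COL6A3 (-0.38). Among NRF2 targets and the O-GlcNAc and KEAP1 genes they differed for HMOX1 (2.41), TRIM16 (1.34), GCLM (1.07), NQO1 (0.94), OGT (1.10), OGA (-1.70) and KEAP1 (0.24). For OGT this is the brightest probe set, and its 4 other probe sets have the opposite sign (-1.87, -0.067, -1.55 and -0.060). Large pooled falls outside the lists differed for SLCO4A1 (-1.51), NDP (-1.02) and LIPG (-0.82). 

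Inflammatory and interferon genes with different effects were PTGS2 (-0.73), CXCL2 (-0.72), CXCL8 (-0.53), IRF7 (-0.18), IFITM1 (-0.64) and BST2 (-0.42). Genes of matrix, TGF-beta and ERK feedback were TNC (-0.39), TAGLN (0.25), LTBP1 (-0.56), TGFBR2 (-0.26), SPRY1 (-0.69), ETV1 (-0.71) and DUSP4 (-0.49). Marker genes were S100A4 (-0.54), AGR2 (-1.47), CLDN7 (-0.46) and KRT19 (-0.46). Genes of replication, histones and cilia were MCM7 (-0.69), LIG1 (-0.26), H1-10 (-0.26), H2BC12 (-0.16), BBS1 (-0.21) and IFT52 (0.18). Genes of stress, hypoxia and p53 lists were SDF2L1 (0.22), HSP90B1 (-0.24), DDIT4 (-0.85), GDF15 (-0.46), GADD45A (0.17), STC1 (-0.40), ADM (0.47) and VEGFA (-0.65). The remaining genes were PMVK (0.51), NOP2 (0.25), CTSZ (-0.32), CTSL (0.43), SLC30A1 (-0.40), GALNT6 (-0.25) and FUT8 (-0.18).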

How the results depend on the processing

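Falls outnumbered rises in the pooled contrast at 48 h in every alternative run, while its counts depended on processing. The 674 calls became 395 after median centring, 1166 without dim genes, 1143 with trend and robust variance, 21 with the treated arrays as 1 group and 273 with the replicate block, and 184 to 762 when 1 array was left out. The 482 calls with non-overlapping arrays became 289 after median centring, 21 with the treated arrays as 1 group and 203 with the replicate block, and 153 (without DMSO replicate 2) to 587 (without Thiamet-G replicate 2) when 1 array was left out, with 166 and 174 without DMSO replicate 1 or 3 and 253 and 291 without 5SGlcNAc replicate 1 or 2. The 1634 calls between the inhibitors became 1162 to 2245 under the other settings and, when 1 array was left out, 924 (without 5SGlcNAc replicate 1) to 1933, with 1074 without 5SGlcNAc replicate 2 and 1044 without Thiamet-G replicate 1. Fewer arrays, or fewer genes tested without dim genes, are part of some of these alternatives, and otherwise the cause was not tested. The count of 0 over 2 to 24 h was 0 in all alternatives run. Signs turned for KEAP1 after median centring (0.0067), OGT as the mean of its probe sets (-0.19), GDF15 without probe sets ending in _x_at (0.025), and NFE2L2 without DMSO replicate 3 (-0.010) or Thiamet-G replicate 1 (-0.023), in a range of -0.023 to 0.04 when 1 array was left out. Of 91 named called genes, 43, 43 and 45 stayed called without DMSO replicate 1, 2 or 3, and 8 with the treated arrays as 1 group. Replicate numbers did not pair the arrays. Correlations of same-numbered deviations were -0.33 to 0.17, and 0 of 9 arrays correlated best with its own number. The number of arrays limits the precision.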
